A study of Mus musculus with 4 samples.

Results

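The platelet-derived growth factor (PDGF) family was followed through the cells of mouse digits collected after digit tip amputation. It comprised the ligand genes Pdgfa, Pdgfb, Pdgfc and Pdgfd and the receptor genes Pdgfra and Pdgfrb, taken by symbol, 6 of the 33696 genes in the deposited count tables. PDGF ligands are secreted dimers that draw a pair of receptor chains together and switch on their kinases. PDGF-A acts chiefly through the alpha receptor and PDGF-B through both, whereas PDGF-C and PDGF-D stay latent until a protease cuts away an inhibitory domain. The alpha receptor is a standard marker of fibroblastic mesenchyme and the beta receptor of pericytes and vascular smooth muscle, and PDGF-B from endothelium is the textbook signal that draws pericytes to vessels. In the digit tip, Schwann cell precursors have been described as a source of PDGF-A.

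The study profiled digits of female C57BL/6 mice (the C57BL/6J substrain in the study's methods) aged 6 to 8 weeks by droplet single-cell RNA-Seq. Digits 2 to 4 of the hindlimbs of 10 mice were pooled in each library. By the methods they were cut at the proximal level of P2, the phalanx next to the terminal one (P3), so more than P3 was taken. In the diet experiment, mice received chow with SAR131675, an inhibitor of the lymphatic growth factor receptor VEGFR3, at 30 mg/kg of chow for 8 days as the series design gives it, or matched chow without it. The study's methods instead start this chow before amputation and keep it on throughout. In the lymph node removal (LNR) experiment, lymph nodes were removed on 1 limb and the opposite limb was the sham. The text places the digits at 8 days after amputation, whereas a figure legend gives 5 for the diet pair. There were 4 libraries, SAR131675, control diet, LNR and sham, with 1 per condition. The labels give every library another batch, so what a batch and what a treatment adds cannot be told apart, and no difference has a replicate check. Both control libraries are labelled as untreated, and no library holds uninjured digits alone. The study's methods amputate digits 2 and 4, so as written each pool also holds the unamputated digit between them.

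After limits on cells, 29076 SAR131675, 24030 control diet, 19827 LNR and 20669 sham cells were kept, with medians of 11316, 10712, 5725 and 5851 UMIs (unique molecular identifiers, 1 for each captured transcript). The libraries of a pair shared 348 (diet) and 130 (LNR) cell barcodes, and those of different pairs at most 3. Each pair was clustered apart with the 6 genes left out. Clusters were named "X-like" from marker lists, and related names were joined into families. In each library, 1931 to 2538 cells lay in clusters left unnamed by the naming rules given below. No cluster met the osteoclast list, and the granular keratinocyte name was given only in the diet pair. In the LNR pair a cluster led by Hrnr, Lor and Flg, genes of the granular layer (277 LNR and 299 sham cells), scored highest for it but too close to the spinous list to be named. A level below is in CPM, a gene's UMIs over all UMIs of a family, cluster or class, times 1000000, and its 95% interval covers counting error only. Values for the libraries are given in the order SAR131675, control diet, LNR and sham.

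Among families of cells, Pdgfa was highest in mural-like cells, Pdgfb and Pdgfd in blood endothelial-like cells, Pdgfra in mesenchymal-like cells and Pdgfrb in mural-like cells in all 4 libraries. Pdgfc was highest in myeloid-like cells in 3 of 4 and in mural-like cells in the sham library. Because keratinocyte-like cells were the largest family, they held 46.1% to 67.3% of all Pdgfa UMIs and 40.3% to 58.1% of Pdgfb UMIs even though their levels were lower. Mesenchymal-like cells held 77.5% to 92.9% of Pdgfra UMIs and 56.7% to 67.2% of Pdgfrb UMIs.

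**Figure D1:**
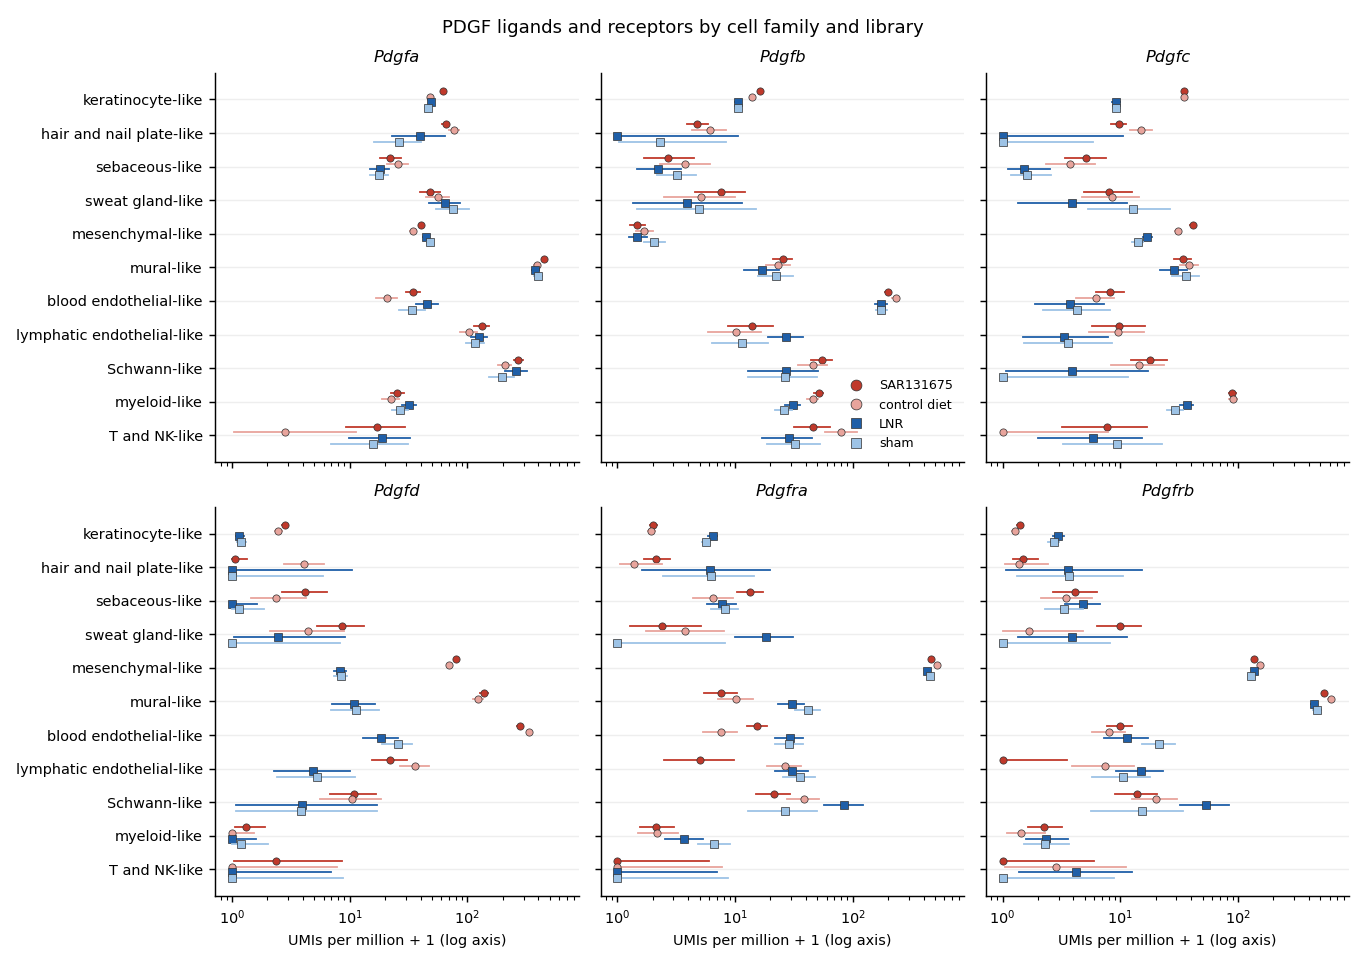
Level of each PDGF gene (CPM plus 1, log axis) in 11 cell families of the 4 libraries, as points with 95% counting intervals. Each gene peaks in the same family in every library except Pdgfc, which in the LNR pair is as high in mural-like as in myeloid-like cells. Pdgfc and Pdgfd mostly sit further right in the diet pair (circles) than in the LNR pair (squares). Pdgfc in mural-like cells is close between the pairs, at means of 35.3 (diet) and 31.4 (LNR) CPM.

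Pdgfa, the ligand of the alpha receptor, stood at 448, 389, 377 and 396 CPM in mural-like cells, the contractile cells of vessel walls. The lowest counting bound among these, 351, was above every other family. Schwann-like cells followed at 271, 206, 258 and 195, and lymphatic endothelial-like cells at 131, 101, 126 and 116. The order mural-like, Schwann-like, lymphatic endothelial-like was the same in both pairs, and the values of neighbors in it did not overlap. Below them, from keratinocyte-like to myeloid-like cells, neighbors mostly overlapped in level or in counting interval. Within the mural-like cells, the smooth muscle-like cluster (531, 446, 423 and 438) was higher than the Rgs5-led cluster (357, 333, 311 and 335.5), which was named pericyte-like in the diet pair.

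In the epidermis, Pdgfa followed the layers. Basal-like keratinocytes stood at 88.3, 84.9, 50.7 and 49.7 CPM, against 6.85, 6.61, 6.18 and 5.60 in spinous-like keratinocytes, which lie above them and make the stress-bearing keratins. Every basal value was thus above every spinous value. Clusters led by hair follicle genes were higher than the basal-like class as a whole, 1 of them inside that class. The cluster led by Fam13a and Lgr5, the latter a follicle stem cell gene, held 302 and 239 in the diet pair and 220.0 and 196 in the LNR pair. The cluster led by Grem1, which was named basal-like, held 209 and 206 in the diet pair and 169 and 170.0 in the LNR pair. A cluster led by Cck, Sox9 and Grem1, found in the LNR pair and not named basal-like, held 204 and 183.

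Pdgfb was highest in blood endothelial-like cells at 198, 230.5, 174 and 174 CPM, 3.46 times the mean of the next family in the diet pair and 5.89 times in the LNR pair. In the diet pair, where these cells formed a pair of clusters, the one led by Flt1 and Adgrl4 held 259 and 303 and the one led by Selp, Sele and Ackr1, genes of venules, held 111 and 136. Next came immune cells. Macrophage-like clusters led by Vsig4 held 130.4 and 108 in the diet pair and 97.5 and 98.5 in the LNR pair. A cluster of the diet pair that was named monocyte-like held 87.1 and 82.8. Its leading genes included Camp, Ngp and S100a8, genes of neutrophil granules among them, as well as Plac8 and Ccr2. The neutrophil-like class held 0 to 8.06 over the libraries, on 8 UMIs in all. T and NK-like cells stood at 44.6, 79.3, 27.5 and 31.6 on 15 to 43 UMIs per library, and T and NK-like, Schwann-like and myeloid-like cells overlapped with their neighbors in that order. A small basal keratinocyte cluster led by Pappa and En1 also stood out in the epidermis, at 88.1 and 102 in the diet pair and 88.2 and 66.4 in the LNR pair. Mesenchymal-like cells, with 0.467, 0.685, 0.47 and 1.05, were close to 0, on 13 to 25 UMIs per library.

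**Figure D2:**
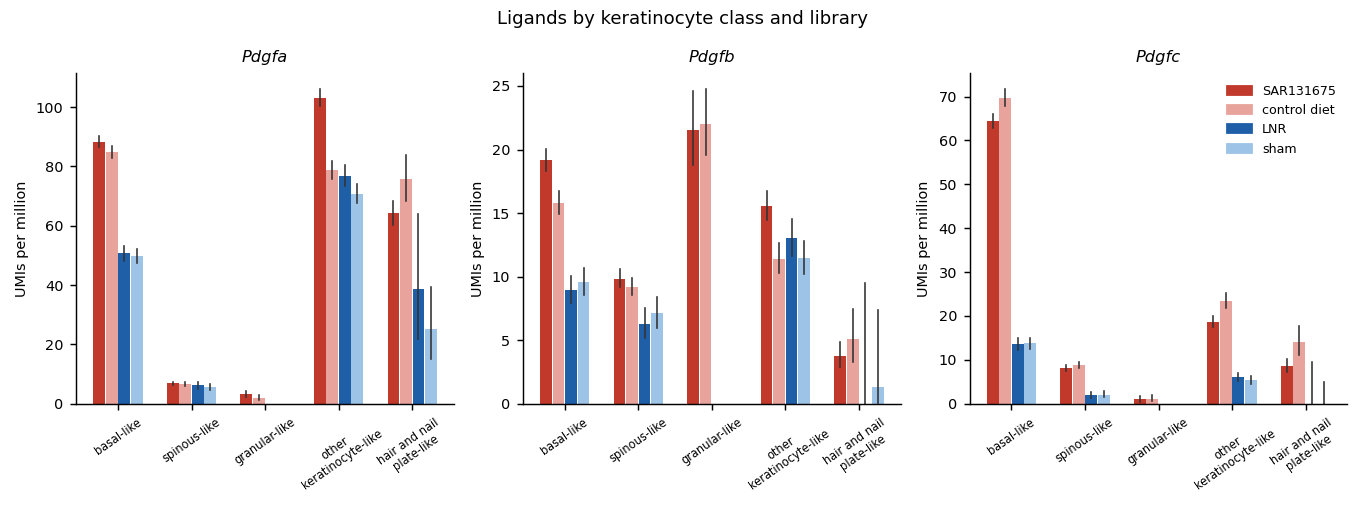
Pdgfa, Pdgfb and Pdgfc levels (CPM) in keratinocyte classes and hair and nail plate-like cells, as bars for the 4 libraries with 95% counting intervals. Pdgfa and Pdgfc drop from basal-like to spinous-like cells in every library, whereas Pdgfb stands at 21.6 and 22.0 in the granular-like cells, a class named only in the diet pair.

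Pdgfb had another epidermal pattern. Its level in granular-like keratinocytes, the outermost living layer, was 21.6 and 22.0, above 19.1 and 15.8 in basal-like and 9.85 and 9.20 in spinous-like keratinocytes of the same pair. The granular and basal counting intervals overlapped in the SAR131675 library and not in the control diet library. The Hrnr, Lor and Flg-led cluster of the LNR pair held Pdgfb at 16.9 (13.2 to 21.3) and 15.3 (11.9 to 19.5), above 8.93 and 9.58 in basal-like and 6.29 and 7.12 in spinous-like keratinocytes, with no overlap of these intervals.

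Among named classes of cells Pdgfc was highest in macrophage-like cells, at 165, 145, 75.1 and 61.5 CPM, although in the sham library the smooth muscle-like class was level with them. Smooth muscle-like cells held 59.0, 71.3, 44.3 and 60.2. Osteoblast-like cells held 124, 116, 51.8 and 48.0, and a mesenchymal-like cluster led by Lrrc15, Col11a1 and Tnn, genes of matrix-forming mesenchyme, held 146, 135, 47.8 and 31.3. Macrophage-like were above osteoblast-like cells in each library, with counting intervals that overlapped in the control diet and sham libraries only. In the epidermis Pdgfc was a basal gene like Pdgfa, with 64.5, 69.7, 13.6 and 13.8 in basal-like keratinocytes against 8.20 and 8.88 in the spinous-like cells of the diet pair. The Fam13a and Lgr5-led cluster of the diet pair, which took no class name, held 145 and 199.

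Pdgfd marked vessels and a few mesenchymal states. Blood endothelial-like cells held 277, 334, 17.4 and 24.6 CPM, mural-like cells 138, 123, 9.94 and 10.3 and mesenchymal-like cells 79.7, 69.3, 7.27 and 7.41, the same order in both pairs, although the counting intervals of mural-like and mesenchymal-like cells overlapped in both LNR pair libraries and those of blood endothelial-like and mural-like cells in the LNR library. Within the mesenchyme, the cluster led by Col8a1, Rbp4 and Eln, genes of elastic matrix among them, held 259, 278, 25.3 and 44.0, and the cluster led by Dkk2 and Mfap4 held 148, 131, 18.0 and 18.4. Osteoblast-like cells were at 239 and 227 in the diet pair, but at 10.6 (7.23 to 15.1) and 9.03 (5.44 to 14.1) in the LNR pair, not apart from the mesenchymal-like family as a whole. The Flt1-led endothelial cluster of the diet pair, at 351 and 429, was higher than the Selp-led one at 171 and 211. Immune cells held almost none, with at most 1.35 in the myeloid-like and T and NK-like cells of any library.

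The receptors were split mostly between mesenchyme and vessel wall. Pdgfra stood at 458, 519.9, 425 and 449.8 CPM in mesenchymal-like cells, at least 7.97 times the mean of the next family of the same pair. T and NK-like cells had 0 Pdgfra UMIs in all 4 libraries, which at 3 counts allows a level of up to 4.06, 5.53, 4.86 and 6.32. Adventitial fibroblast-like cells were among the highest mesenchymal classes (531, 577, 554 and 579.6), synovial lining-like cells were intermediate (415, 459, 337 and 349.6) and chondrocyte-like cells were the lowest (74.7, 75.0, 50.8 and 53.2). Osteoblast-like cells held 254, 298, 238 and 225.

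Pdgfrb stood at 534, 611, 442 and 470.5 CPM in mural-like cells and at 136, 153, 135 and 127 in mesenchymal-like cells. The Rgs5-led mural cluster (749, 872, 694 and 694) exceeded the smooth muscle-like cluster (336, 349, 271 and 313) in every library, the reverse of their order for Pdgfa. In the mesenchyme, the Col8a1, Rbp4 and Eln-led cluster was the highest at 402, 387, 342 and 431. Synovial lining-like cells were the reverse case, with Pdgfrb at 26.4, 25.8, 24.8 and 18.1 beside their high Pdgfra. Mural-like cells in turn held Pdgfra at 6.60, 9.22, 29.3 and 40.5. Mast-like cells, a family named only in the LNR pair, held Pdgfrb at 37.6 to 65.6 on 36 UMIs in all.

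**Figure D3:**
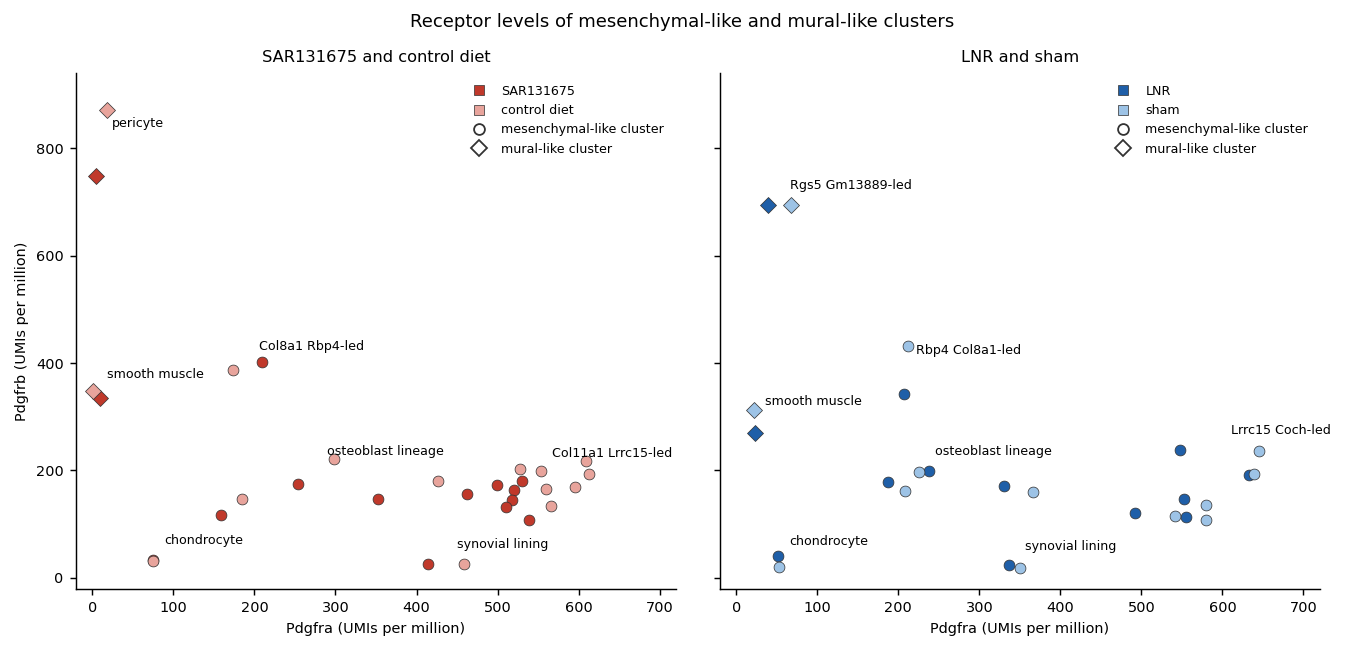
Pdgfra (x axis) against Pdgfrb (y axis), both in CPM, for each mesenchymal-like cluster (circles) and mural-like cluster (diamonds) with 1 point per library. Mural-like clusters lie along the Pdgfrb axis, most mesenchymal-like clusters lie to the right and lower, and synovial lining-like cells keep Pdgfra while Pdgfrb falls to 18.1 to 26.4.

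Receptor transcripts met in the same mesenchymal cells about as often as their separate shares give. With every cell drawn down to 2000 UMIs, Pdgfra was found in 55.2%, 59.1%, 52.9% and 55.8% of mesenchymal-like cells and Pdgfrb in 24.0%, 25.5%, 23.4% and 22.8%. Both were found in 13.02% (95% binomial interval 12.0% to 14.1%), 15.5% (14.4% to 16.8%), 12.8% (11.8% to 13.7%) and 13.1% (12.2% to 14.2%), which is 0.985, 1.03, 1.03 and 1.03 times the product of the separate shares. As sequenced, the shares with both were 54.4%, 54.5%, 28.7% and 27.1%, with medians of 10008, 9117, 3930.0 and 3821 UMIs per mesenchymal-like cell. Cells under 2000 UMIs left out numbered 277, 250, 874 and 871. In T and NK-like cells, 0 of 121, 84, 110 and 79 cells had a UMI of either receptor at that depth, which gives upper 95% limits of 3.00%, 4.30%, 3.30% and 4.56% on cells with a UMI at that depth, not on cells that express the gene.

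UMIs of Pdgfa and of the beta receptor were found together in part of the mural-like cells. At 2000 UMIs, 28.8%, 31.4%, 24.2% and 25.9% of them had UMIs of both Pdgfa and Pdgfrb, and as sequenced, at medians of 2720 to 7107 UMIs, 71.2%, 68.7%, 40.4% and 39.7%. Pdgfa, with or without Pdgfrb, was found in 1.19% to 2.53% of T and NK-like cells and in 46.3% to 49.4% of mural-like cells at 2000 UMIs. Pdgfrb was found in 248 of 495 LNR and 194 of 379 sham mural-like cells at that depth. The shares with both genes were not set against the product of the separate shares, so they show no more than joint detection. Pdgfa and Pdgfra met in few mesenchymal-like cells, 3.17%, 2.80%, 3.24% and 3.38% at 2000 UMIs.

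Low receptor levels in other families moved with other cells' genes. In Schwann-like cells Pdgfra stood at 20.3, 37.3, 84.1 and 25.8 CPM, and the 8 fibroblast markers (Dcn and Col1a1 among them), all detected, summed to 4198, 5083, 8937 and 5078. In keratinocyte-like cells Pdgfra stood at 1.03, 0.946, 5.48 and 4.67. In the LNR pair 308 of 406 LNR and 290 of 379 sham UMIs came from 1 cluster led by Cst6 and Klk10, with 205 LNR and 236 sham cells at 112 and 98.7, where all 8 fibroblast markers were detected, summing to 6337 and 6499, and Scrublet called 112 and 144 of the cells doublets. The part of such cells in these levels was not tested. Mixed clusters left unnamed also held receptor RNA, such as the LNR pair's cluster of endothelial and pericyte genes (Fabp4 and Rgs5) with Pdgfrb at 298 and 298 and Pdgfb at 133 and 101.

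Genes whose pattern over 106 points of cell class and library was most like each member were ranked by Pearson's r of log2(CPM + 10) among 14694 genes. The points share libraries and cell sources, so r is a description. Pdgfrb had the closest companions, with Pcdh18 at r = 0.95, followed by Arhgef25, Twist1, Adamts2 and Prrx1. Pdgfra had Hoxd13 at r = 0.94, followed by Spon1, Loxl1, Scara3 and Ccdc80. Pdgfd had 9530026P05Rik at 0.85, followed by Ebf3, Fat4, Fam13c and Adamts9. The ranking pools both pairs, between which the levels of Pdgfc and Pdgfd differed. Within the diet and LNR pairs, r with Pdgfd was 0.85 and 0.72 for 9530026P05Rik and 0.83 and 0.69 for Adamts9. It was 0.89 and 0.89 for Ebf3, 0.90 and 0.85 for Fat4 and 0.85 and 0.82 for Fam13c. The other ligands were less alike to any gene: Pdgfa had Cd151 at 0.79, then 6330403L08Rik, Csrp1, Ift43 and Naf1, Pdgfb had Ehd4 at 0.77, then Cysltr1, Rasa4 and Slc14a1, and Pdgfc had Lix1 at 0.76, then Snx24, Nfxl1, Mef2a and Fgfr1.

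The diet comparison asked which of these levels differed between mice on SAR131675 and on control chow. Ratios are given as log2 of SAR131675 over control diet with exact conditional 95% intervals, for members with at least 100 UMIs in a family. Both receptors were lower with SAR131675 in the cells that carry them. Pdgfra in mesenchymal-like cells was at 458 against 519.9, a log2 ratio of -0.18 (-0.21 to -0.15), and it was lower in 12 of 13 clusters of that family. Pdgfrb was lower by about as much in mesenchymal-like cells (-0.18, -0.23 to -0.12, 10 of 12 clusters) and in mural-like cells (-0.20, -0.28 to -0.11, 2 of 2 clusters). Clusters share the libraries and are not replicates. None of these was past 1.5-fold. Of all genes with at least 100 UMIs, 4.43% were past 1.5-fold in the mesenchymal-like and 3.50% in the mural-like cells, and of the members 0 of 5 in each.

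Pdgfb and Pdgfd were also lower with SAR131675 in blood endothelial-like cells. In blood endothelial-like cells Pdgfb was at 198 against 230.5 (-0.22, -0.34 to -0.10) and Pdgfd at 277 against 334 (-0.27, -0.37 to -0.17), both lower in 2 of 2 clusters. Pdgfa was higher there at 33.5 against 19.7 (0.76, 0.39 to 1.15), as was Pdgfra at 14.5 against 6.58 (1.14, 0.51 to 1.81), 2 of 4 members past 1.5-fold where 4.13% of genes were. Markers of other cells differed there in both directions. All 8 fibroblast markers were detected in both libraries and summed to 1116 against 283 CPM, and the 8 macrophage markers to 221 against 101. The lists of mural cells, the family with the most Pdgfa, went the other way, at 139 against 162 for pericytes and 658 against 759 for smooth muscle, and the blood endothelial markers themselves were at 8190 against 8761. Their part in these 4 ratios was not tested. With endothelial cells chosen by their markers instead of by cluster, the Pdgfa ratio was -0.0093 and the Pdgfb ratio -0.088 (-0.21 to 0.032), an interval that holds 0.

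The remaining ligand ratios were mostly above 0. In mesenchymal-like cells Pdgfc was at 40.2 against 29.7 (0.44, 0.33 to 0.55), Pdgfa at 39.5 against 33.5 (0.24, 0.13 to 0.34) and Pdgfd at 79.7 against 69.3 (0.20, 0.13 to 0.27). Under the 10 alternatives, 1 of which sets the same mix of clusters, these ran from 0.19 to 0.59, 0.16 to 0.41 and 0.15 to 0.29. Some clusters high in Pdgfc or Pdgfd held more SAR131675 cells. There were 196 against 111 osteoblast-like, 213 against 120 Col11a1 and Lrrc15-led and 143 against 60 Col8a1-led cells. The family held 4416 against 3858 cells, and the Dkk2-led cluster 710 against 719. Pdgfd was higher in 6 of the 8 mesenchymal-like clusters with at least 100 UMIs, and in 1 below that limit, led by Col11a1 and Lrrc15, it was at 9.78 against 34.7 on 27 and 47 UMIs. In mural-like cells Pdgfa was at 448 against 389 (0.20, 0.10 to 0.31), and in Schwann-like cells at 271 against 206 (0.39, 0.16 to 0.63). Markers of mural cells, the family with the most Pdgfa, moved with the latter, at 267 against 196 CPM summed over 8 pericyte markers (7 and 5 of them detected) and 368 against 276 over 8 smooth muscle markers (7 and 6). Keratinocyte markers were also higher, at 3777 against 2560, whereas fibroblast markers were lower, at 4198 against 5083, and the part of these cells in the ratio was not tested. The smooth muscle-like class held Pdgfd at 111 against 72.6 (0.62, 0.29 to 0.95), 1 of 5 members past 1.5-fold against 4.20% of genes, whereas the pericyte-like class held it at 167 against 173 (-0.05, -0.28 to 0.19). Synovial lining-like cells held Pdgfd at 13.1 against 6.91 (0.93, 0.33 to 1.55, on 112 UMIs), also 1 of 5 members, against 3.93% of genes.

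In keratinocyte-like cells Pdgfa was higher with SAR131675, at 60.9 against 47.5 (0.36, 0.32 to 0.40), and Pdgfb at 15.4 against 12.9 (0.26, 0.19 to 0.34), while Pdgfc was at 34.0 against 33.6 over the family (0.02, -0.03 to 0.06). Both the Pdgfa and the Pdgfc ratio moved with the mix of clusters. With the same mix in both libraries the Pdgfa ratio was 0.088, and within basal-like keratinocytes it was 0.058 (0.010 to 0.11). For Pdgfc the ratio with the same mix was -0.15, within basal-like keratinocytes it was -0.11 (-0.17 to -0.060), and Pdgfc was lower with SAR131675 in 11 of 13 clusters. No member of 6 was past 1.5-fold, where 5.90% of genes were. The family called hair and nail plate-like joins the inner root sheath list with the hair shaft and nail plate list, and its diet pair cluster was led mostly by inner root sheath genes (Krt25, Krt71 and Tchh among them). There Pdgfc was at 8.68 against 14.1 (-0.70, -1.12 to -0.27), 1 of 2 members past 1.5-fold where 4.84% of genes were, but at 0.26 without upper limits on the UMIs and genes of a cell.

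In myeloid-like cells Pdgfb was at 50.5 against 44.8 (0.17, -0.04 to 0.39) and Pdgfc at 88.4 against 89.4 (-0.02, -0.17 to 0.14). Of the clusters with at least 100 UMIs, Pdgfb was higher with SAR131675 in 3 of 4 and Pdgfc in 3 of 3. The Pdgfc ratio was above 0 in 7 of 10 alternatives (-0.16 to 0.26). None of 3 members was past 1.5-fold, where 3.93% of genes were.

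**Figure D4:**
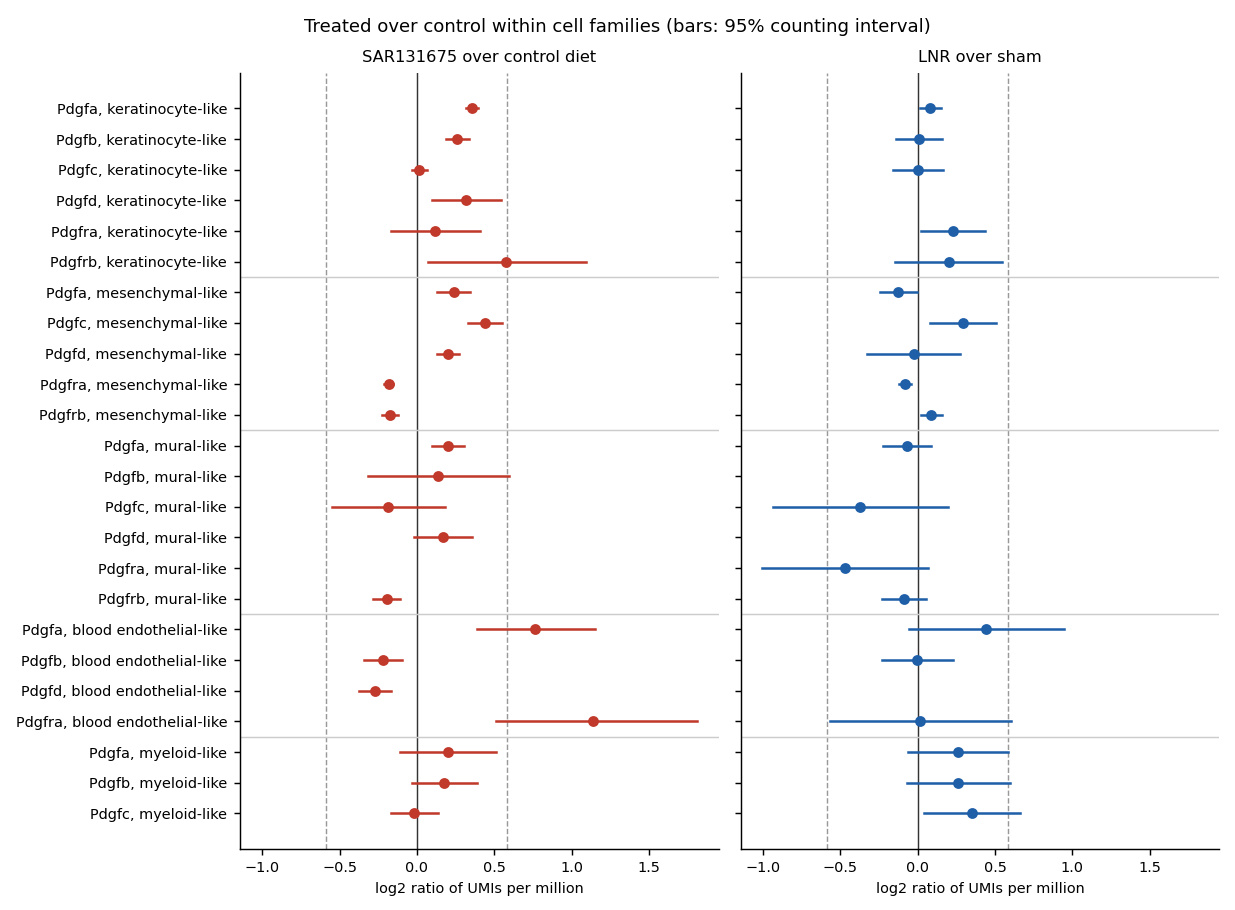
Log2 ratio of CPM, SAR131675 over control diet (left) and LNR over sham (right), for each member with at least 100 UMIs in 5 cell families. Points are ratios, bars are 95% counting intervals and dashed lines mark 1.5-fold. Only Pdgfa and Pdgfra in blood endothelial-like cells of the diet pair lie past a dashed line.

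The LNR comparison set the operated limb against the sham limb. The receptor ratios were smaller: Pdgfra in mesenchymal-like cells was at 425 against 449.8 (-0.08, -0.12 to -0.04), lower in 9 of 10 clusters. Pdgfrb went the other way in the mesenchyme, at 135 against 127 (0.09, 0.02 to 0.16), higher in 8 of 10 clusters. In mural-like cells it was at 442 against 470.5 (-0.09, -0.23 to 0.05). The endothelial ligand Pdgfb was the same within counting error at 174 against 174 (interval of the ratio -0.23 to 0.23).

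Pdgfc was higher with LNR in mesenchymal-like cells, at 15.99 against 13.1 (0.29, 0.08 to 0.51), and in myeloid-like cells, at 35.8 against 28.1 (0.35, 0.04 to 0.66). In mural-like cells it was at 27.3 against 35.4 (-0.37, -0.94 to 0.19, on 55 UMIs in each library), an interval that holds 0, and below 0 under all 10 alternatives (-0.44 to -0.23). Pdgfa was close in mesenchymal-like cells (43.3 against 47.2, -0.13, -0.24 to -0.01), in keratinocyte-like cells (48.3 against 45.6, 0.08, 0.01 to 0.15) and in mural-like cells (377 against 396, -0.07, -0.22 to 0.09). In Schwann-like cells Pdgfa was at 258 against 195 (0.41, -0.07 to 0.88), an interval that holds 0, with pericyte markers at 383 against 120, smooth muscle markers at 493 against 329 and fibroblast markers at 8937 against 5078, but keratinocyte markers at 5308 against 7518. Their part was not tested. The Schwann-like ratio was above 0 under all 10 alternatives in both pairs, from 0.12 to 0.43 in the diet pair and from 0.057 to 0.58 in the LNR pair. The alternatives recount largely the same cells, so a kept sign, here or for Pdgfc in mural-like cells, is no replicate check. In the LNR pair the Schwann-like cells formed 1 cluster, so the same mix of clusters leaves the ratio as it was. No member was past 1.5-fold in any family. Of all genes, 1.38% were past it in the keratinocyte-like cells, 1.14% in the mesenchymal-like, 2.23% in the mural-like, 2.22% in the blood endothelial-like and 2.64% in the myeloid-like cells.

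The pathway around the members was read from a list of 33 genes in 4 groups. Of the proteases that can release or process the ligands, Pcsk5 was highest in mesenchymal-like cells (45.6 to 180.0 CPM), while Plat encodes the tissue plasminogen activator that cleaves PDGF-C. In the diet pair Pcsk6 and Plat were higher in lymphatic endothelial-like cells (Pcsk6 378 and 438, Plat 96.7 and 106) than in mesenchymal-like cells (155 and 186, 67.7 and 82.2). In the LNR pair mesenchymal-like cells stood at 249 and 298 for Pcsk6 and 72.9 and 66.6 for Plat, and lymphatic endothelial-like cells at 241 and 254 and at 38.0 and 55.3, an order that was not set against counting error. Lrp1, an endocytic coreceptor, was highest in mesenchymal-like cells (953 to 1150.3), and the feedback inhibitors Spry2 (88.2 to 162) and Spry4 (60.5 to 85.9) in mural-like cells. The ranges given cover the 4 libraries.

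None of the listed genes was past 1.5-fold in the same direction in both pairs in any family. The share of all genes past 1.5-fold in the same cells stands in brackets beside each count. In keratinocyte-like cells it was 0 of 32 in both pairs (5.90% with SAR131675 and 1.38% with LNR). In mesenchymal-like cells 1 of 30 was past it with SAR131675 (4.43%) and 0 of 30 with LNR (1.14%). That gene was Spry4, a feedback inhibitor of receptor signaling, at 5.61 against 10.2 (-0.86, -1.10 to -0.62). In mural-like cells Plat was at 49.4 against 31.6 in the diet pair (1 of 29, against 3.50%), and in the LNR pair Spry2 was at 103 against 162 and Rasa1, a Ras GTPase activator, at 30.8 against 48.9 (2 of 21, against 2.23%).

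In myeloid-like cells, Sparc, which binds PDGF-B, was at 159 against 244 with SAR131675 (1 of 24, against 3.93%), and 0 of 22 genes were past it with LNR (2.64%). Blood endothelial-like cells had 2 of 28 in the diet pair (4.13%), Pcsk6 at 13.3 against 8.69 and Lrp1 at 35.4 against 16.2, and 1 of 19 in the LNR pair (2.22%), Lrp1 at 57.6 against 88.2. Lrp1 moved there in the same direction as the fibroblast markers in each pair (1116 against 283, and 2264 against 2630), and their part in it was not tested.

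In some of the other families a larger share of the listed genes was past 1.5-fold. In lymphatic endothelial-like cells 4 of 20 listed genes were past 1.5-fold with SAR131675 (3.97% of all genes). Plau, the urokinase-type plasminogen activator, was at 58.6 against 29.7, whereas the convertase Furin was at 48.4 against 96.3, Lrp1 at 22.5 against 65.9 and Sparc at 129 against 225. With LNR it was 2 of 18 (3.14%), Sparc at 432 against 247 and Thbs1 at 65.1 against 38.9. Fibroblast markers in these cells summed to 529 against 1288 and 2457 against 1649, in the direction of Lrp1 and Sparc, and their part was not tested. With SAR131675, T and NK-like cells had 4 of 14 (6.83%), all higher, namely Pik3ca, Rasa1, Cblb and Socs1, and sebaceous-like cells had 4 of 23 (3.74%), with Nrp1, Lrp1 and Sparc higher and Thbs1 lower. With LNR it was 0 of 4 in T and NK-like cells (5.32%) and 0 of 21 in sebaceous-like cells (1.96%). The listed genes named by their ratios here were chosen after their values were seen.

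Between the experiments, 5 of the 6 genes, all but Pdgfc, kept their leading family in every library, but not every level was kept. On the means of the pairs, Pdgfc also led in myeloid-like cells in both. It stood there at 88.9 (diet) and 31.9 (LNR) CPM, against 35.3 and 31.4 in mural-like cells. How many of all genes keep their leading family was not counted. Over all kept cells, the diet pair's mean was 1.06 times the LNR pair's for Pdgfa, 1.41 for Pdgfb, 0.731 for Pdgfra and 0.756 for Pdgfrb, but 3.19 for Pdgfc and 8.62 for Pdgfd. Within families, Pdgfd was 14.5 times higher in blood endothelial-like and 10.2 times higher in mesenchymal-like cells, and Pdgfc 4.11 times higher in keratinocyte-like, 2.78 in myeloid-like and 1.12 in mural-like cells. For Pdgfra in mesenchymal-like cells the ratio was 1.12, and for Pdgfrb 1.10 there and 1.25 in mural-like cells. Where the receptors were low, most ratios were below 1, at 0.194 for Pdgfra in keratinocyte-like, 0.226 in mural-like and 0.375 in blood endothelial-like cells, and at 0.187 for Pdgfrb in keratinocyte-like and 0.522 in blood endothelial-like cells. Pdgfra in sebaceous-like cells went the other way, at means of 9.04 CPM in the diet pair and 6.96 in the LNR pair, a ratio of 1.30. The file headers name Cell Ranger 8.0.1 for the diet pair and 6.1.2 for the LNR pair, although the labels name 6.1.2 for all. Recent releases count intronic reads by default and older ones did not.

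**Figure D5:**
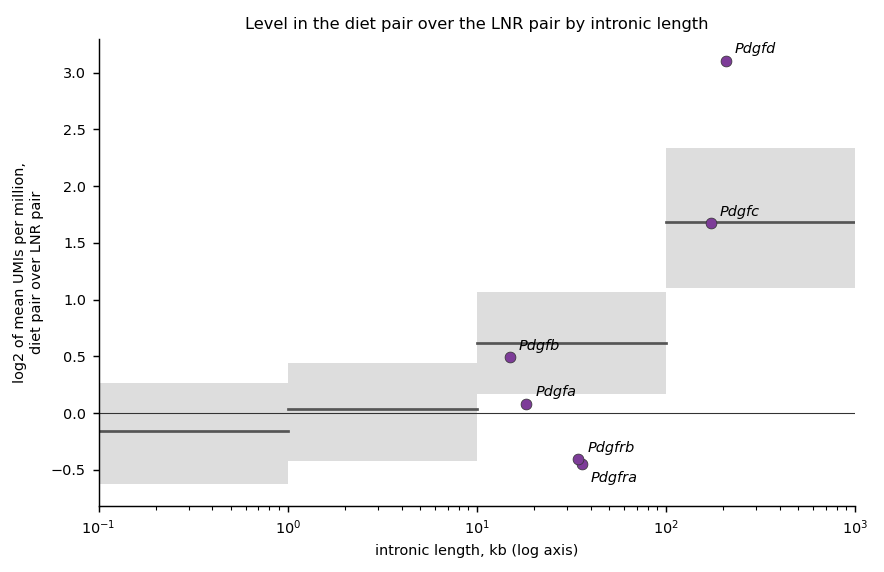
Log2 of mean CPM, diet pair over LNR pair across all kept cells (y axis), against intronic length in kb (x axis, log) for the 6 PDGF genes (points). Gray bands and lines are the quartiles and median of 15541 genes in bins of intronic length, rising from a median of -0.15 under 1 kb to 1.68 over 100 kb, with Pdgfc on the median of its bin and Pdgfd above the upper quartile of 2.33.

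Pdgfc and Pdgfd are the members with the longest introns, 173 and 207 kb, against 14.9 to 35.9 kb for the other 4. Among 15541 genes, the median ratio between the pairs was 0.898 under 1 kb of intron, 1.02 from 1 to 10 kb, 1.53 from 10 to 100 kb and 3.21 over 100 kb. Experiment, Cell Ranger version and depth differ together between the pairs and cannot be told apart. Cell barcodes were also hardly shared between the pairs, at most 3 against 348 and 130 within them. Whether the chemistry version differs too was not tested.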

How the data were processed

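The deposited files hold raw UMI counts for every gene in every barcode, made by the authors with 10x Genomics 3' chemistry (Cell Ranger, GRCm39 in the labels, no barcode under 500 UMIs). Barcodes were kept with 200 to 5500 genes, at most 30000 UMIs and at most 10% mitochondrial UMIs, the limits of the study's methods for the LNR data. Without the upper limits on genes and UMIs, 35297, 28430, 20350 and 21182 cells remain, against 29076, 24030, 19827 and 20669 kept. These limits thus removed more cells from the diet pair, the deeper one. Normalized counts of 2000 variable genes, with the members left out, gave 30 principal components, 20 neighbors and Leiden clusters at resolution 0.7, in each pair and again within epithelial, stromal and immune cells. SCTransform and Harmony were not repeated. A cluster took a family name at a marker score of at least 0.3 with every other score under 0.65 of it and at least 3 markers in 5% of its cells. Scores of families from another compartment had to be under 0.4, and no other family could have more markers among the 10 leading genes. Keratinocyte-scoring clusters outside the epithelial cells stayed unnamed, as did clusters of low depth with no own marker among the leading genes. For class names within a family the margin was 0.75. Classes under 30 cells in a library were left out. Doublets were left in. As an alternative, Scrublet called 4.67%, 4.10%, 6.31% and 7.44% of cells (30.8%, 24.7%, 17.3% and 18.0% expected), so most expected doublets stay.

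CPM of summed UMIs carry exact Poisson intervals, shares Clopper-Pearson intervals and log2 ratios exact conditional intervals. No test across samples was possible with 1 library per condition. Intervals and ratios were tested on simulated counts. Members, marker lists and pathway genes were chosen with earlier results of these data known. Genes named were the members, pathway genes past 1.5-fold in the same direction in both pairs (none) and the 5 genes most like each member (1 of them is not reported here), and others were chosen after their values were seen. Alternatives changed the limits on cells, doublets, resolution, joint clustering, the choice of cells, scaling, weight, depth and the mix of clusters. Intronic lengths came from the GENCODE annotation of an older build and were matched by gene for lengths only. No column was left out. Tools were scanpy 1.11.5, scikit-learn 1.9.0 and igraph 0.11.9 for clusters and scipy 1.17.1 for intervals, under Python 3.11.15.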

Additional observations from a re-analysis of the deposited data

Results flagged for a closer look

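For 6 genes in the diet pair and 2 in the LNR pair, log2 ratios lay past counting error in opposite directions in different cell families. How many of all genes do so was not counted, so these counts are not read as particular to the members. For each gene, the families with the highest and the lowest such ratio were picked, so each difference is the largest available. None of these differences was tested, since each condition has 1 library. With SAR131675, Pdgfb was higher in keratinocyte-like cells (0.26) and lower in blood endothelial-like cells (-0.22), a difference of 0.48. Pdgfd did the same (0.32 and -0.27), a difference of 0.59, on a level under 2 CPM in keratinocyte-like cells, where the ratio was -0.33 with the same mix of clusters. Pdgfrb was higher in keratinocyte-like cells (0.57, at 0.411 against 0.276 CPM) and lower in mural-like cells (-0.20), a difference of 0.77. In these keratinocyte-like cells fibroblast markers summed to 108 against 79.7 CPM, smooth muscle markers to 72.9 against 41.4 and pericyte markers to 201 against 196. Their part was not tested. Pdgfra was higher in blood endothelial-like cells (1.14) and lower in mesenchymal-like cells (-0.18), a difference of 1.32. Pdgfa was higher in blood endothelial-like cells (0.76) and lower in hair and nail plate-like cells (-0.24), a difference of 1.00, but the ratios were -0.0093 with endothelial cells chosen by markers and 0.0067 in hair and nail plate-like cells without upper limits on cells. Pdgfc was higher in mesenchymal-like cells (0.44) and lower in hair and nail plate-like cells (-0.70), a difference of 1.14, but the latter ratio was 0.26 without upper limits on cells.

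With LNR, Pdgfa was higher in keratinocyte-like cells (0.08) and lower in mesenchymal-like cells (-0.13), a difference of 0.21. Pdgfra was higher in keratinocyte-like cells (0.23) and lower in mesenchymal-like cells (-0.08), a difference of 0.31, with most of the keratinocyte UMIs in the cluster that carried fibroblast markers. The keratinocyte ratio was -0.14 without upper limits on cells and -0.11 with cells chosen by markers.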

How the results depend on the processing

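No paired analysis was possible because each condition has 1 library and no group has a second replicate. The ratios of Pdgfra and Pdgfrb in their leading families, and of Pdgfb and Pdgfd in blood endothelial-like cells of the diet pair, kept their sign under all 10 alternatives. The alternatives recount largely the same cells and are not replicates. Cells chosen by markers gave -0.0093 for Pdgfa in blood endothelial-like cells of the diet pair and -0.11 for Pdgfra in keratinocyte-like cells of the LNR pair, both the reverse of the reported sign, and moved Pdgfb in blood endothelial-like (-0.088) and Pdgfc in myeloid-like cells (0.26) of the diet pair. Without upper limits on cells the sign turned for Pdgfa (0.0067) and Pdgfc (0.26) in hair and nail plate-like cells and for Pdgfra in keratinocyte-like cells of the LNR pair (-0.14), and Pdgfc in keratinocyte-like cells of the diet pair was -0.066. With the same mix of clusters in both libraries, an alternative chosen after seeing the data, diet ratios in keratinocyte-like cells were 0.088 for Pdgfa, -0.15 for Pdgfc and -0.33 for Pdgfd, which had been above 0, and Pdgfrb in mesenchymal-like cells was -0.24 and Pdgfc in myeloid-like cells 0.15. As a mean over cells, Pdgfd in blood endothelial-like cells was -0.16 and Pdgfa and Pdgfc in keratinocyte-like cells 0.26 and -0.049. With cells thinned to 2000 UMIs, Pdgfd in mesenchymal-like cells was 0.29 and Pdgfa in lymphatic endothelial-like cells -0.079, below 0. With genes of at least 20 UMIs, the share past 1.5-fold in keratinocyte-like, mesenchymal-like, mural-like, blood endothelial-like and myeloid-like cells was 11.5%, 11.0%, 11.0%, 12.5% and 11.4% in the diet pair and 5.92%, 6.12%, 12.6%, 11.4% and 9.60% in the LNR pair. Shares of cells with both receptors as sequenced were 54.4%, 54.5%, 28.7% and 27.1% in mesenchymal-like cells and 3.26% in LNR mural-like cells. The causes of these changes were not tested. With called doublets out, the 24 leading levels stayed within their counting intervals. Some levels near 1 CPM, such as Pdgfb in mesenchymal-like cells, rest on few UMIs and wide counting intervals. In the large keratinocyte-like family they can rest on many, as for Pdgfd with SAR131675 at 1.83 (1.66 to 2.01) on 423 UMIs.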

Other observations

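In the diet pair, a small unnamed cluster led by Cnn1, Acta2 and Mylk, genes of contractile cells, held both mural and keratinocyte markers (31 SAR131675 and 30 control diet cells, of which Scrublet called 1 and 1 doublets). It carried Pdgfa at 286 and 291 CPM and Pdgfb at 217 and 232, the latter close to the blood endothelial-like level, as well as Pdgfd at 182 and 177. In the LNR pair, an unnamed cluster led by Acta2, Cnn1 and Myh11 (170 LNR and 168 sham cells) carried Pdgfb at 37.3 and 37.4.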
